A study of Mus musculus with 6 samples.

Results

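The basement membrane is the thin sheet of extracellular matrix on which bile duct cells rest, and integrins are the receptors that hold the cells to it. Transcripts of both were measured in biliary epithelial cells, the epithelium that lines the bile ducts. The rule that chose the genes uses symbols and no measured value, though it was set with earlier results of these data known. It takes the laminin chains (Lama, Lamb and Lamc followed by a number), the 6 collagen IV chains, the numbered integrin subunits with Itgav, and Nid1, Nid2, Hspg2, Agrn, Col18a1 and Dag1. They were 43 of the 21700 genes in the table. The cells came from livers of wild-type (WT) female C57BL/6 mice, with 3 libraries of non-pregnant and 3 of pregnant females, the latter at dpc8 (day 8 post coitum). The labels list no transgene and no agent for either group. Livers were perfused and digested, and flow cytometry then took the cells out of the non-parenchymal fraction. The sources used here do not give the mice's ages, the mice per library or the antibodies that marked the sorted cells. Because no label ties each library to an animal of its own, the p-values cover no more than the spread among these libraries, which may be technical.

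A basement membrane is built on a network of laminins, each a cross-shaped trimer of an alpha, a beta and a gamma chain, and a network of collagen IV, each a trimer of alpha chains. Nidogens and the heparan sulfate proteoglycans perlecan (Hspg2), agrin (Agrn) and collagen XVIII (Col18a1) link the networks. Cells bind them through integrins, which are pairs of an alpha and a beta subunit, and through dystroglycan (Dag1), whose sugar chains bind laminin, agrin and perlecan. Around bile ducts the sheet separates the epithelium from the portal stroma. In the liver it is made by epithelium, endothelium and stellate cells alike.

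The values are FPKM (fragments scaled to exon length and to a factor for each library), so that levels of different genes can be set side by side. Between 25047887 and 35083751 fragments per library were recovered from the FPKM values. The 6 libraries carried the markers of biliary epithelium, with Krt19 between 220.1 and 386 FPKM and Epcam between 182 and 195 FPKM. Non-pregnant library 2 stood apart in 8 of 9 endothelial markers, all but Vwf. The summed level of the 9 was 169 FPKM there and 11.9 to 24.8 FPKM in the other 5. Pregnant libraries stood apart in 9 markers of Kupffer cells, the liver macrophages, with sums of 94.6, 69.9 and 34.9 FPKM against 5.50, 7.75 and 1.94 FPKM without pregnancy; 3 of the 7 tested had a limma adjusted p under 0.05, all higher at dpc8, and none of the 9 was at 0 in any library. The 7 biliary markers summed to 4738 to 6069 FPKM without pregnancy and 6523 to 6979 FPKM at dpc8, none of them passing. Most of these sums came from Spp1, at 3941 to 5206 FPKM without pregnancy and 5532 to 5941 FPKM at dpc8. The ratio of group means, pregnant over non-pregnant, ran from 1.05 for Sox9 and Epcam to 1.66 for Cftr. Non-pregnant library 3 held the lowest values of the biliary markers Spp1, Krt19, Krt7, Cldn7 and Cftr. Its levels of the biliary markers Sox9 (306 FPKM) and Epcam (184 FPKM) were instead the highest of the non-pregnant libraries. In such sorted bulk samples, fewer cells of a type and less RNA per cell cannot be told apart.

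The promoter sequences that bear most directly on what follows are those of Col4a1 and Col4a2, whose chains join in the most widespread collagen IV trimer. These genes lie head to head on chromosome 8, and their annotated starts (11312826 on the minus strand for Col4a1, 11312805 on the plus strand for Col4a2) are 21 bases apart, so that the first bases of both transcripts overlap. The RefSeq windows from 250 bases before to 50 bases after each start (build GRCm38.p6) share 78 bases, which are in capitals below, each window being read 5′ to 3′ on its own gene's strand. They are shown because the level of one gene can be read against the other within each library. The windows of Agrn and Lamb1, the members with the smallest p among those higher in pregnancy, follow with GC boxes (the letters GGGCGG on either strand) in capitals.
Col4a1, chr8:11312777-11313076, minus strand: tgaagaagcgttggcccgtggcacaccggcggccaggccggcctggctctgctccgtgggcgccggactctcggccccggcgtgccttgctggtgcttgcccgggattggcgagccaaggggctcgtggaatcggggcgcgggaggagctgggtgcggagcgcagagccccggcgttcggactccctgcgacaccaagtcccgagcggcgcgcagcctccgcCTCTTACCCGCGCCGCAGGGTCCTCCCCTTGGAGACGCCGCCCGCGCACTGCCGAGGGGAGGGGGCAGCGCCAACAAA
Col4a2, chr8:11312555-11312854, plus strand: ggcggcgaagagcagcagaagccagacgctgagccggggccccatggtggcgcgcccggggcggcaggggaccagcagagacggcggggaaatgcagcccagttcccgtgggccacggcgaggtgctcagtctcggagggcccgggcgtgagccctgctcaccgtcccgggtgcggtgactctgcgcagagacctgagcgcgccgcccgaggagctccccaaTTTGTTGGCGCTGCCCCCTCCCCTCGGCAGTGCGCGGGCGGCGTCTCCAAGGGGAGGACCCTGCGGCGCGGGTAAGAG
Agrn, chr4:156197439-156197738, minus strand: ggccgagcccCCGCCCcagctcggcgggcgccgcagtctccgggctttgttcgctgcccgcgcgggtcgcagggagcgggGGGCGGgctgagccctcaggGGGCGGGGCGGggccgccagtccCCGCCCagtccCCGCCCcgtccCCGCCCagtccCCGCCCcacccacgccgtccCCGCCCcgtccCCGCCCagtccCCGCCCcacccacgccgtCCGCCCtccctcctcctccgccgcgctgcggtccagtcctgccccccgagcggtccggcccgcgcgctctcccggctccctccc
Lamb1, chr12:31265043-31265342, plus strand: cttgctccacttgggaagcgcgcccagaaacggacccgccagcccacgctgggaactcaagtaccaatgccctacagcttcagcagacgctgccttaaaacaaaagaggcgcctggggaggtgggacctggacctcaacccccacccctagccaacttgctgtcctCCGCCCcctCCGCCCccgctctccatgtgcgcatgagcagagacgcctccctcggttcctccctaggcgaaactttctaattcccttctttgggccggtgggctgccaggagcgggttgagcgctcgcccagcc

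The Agrn window held 12 GC boxes, counting overlapping matches, the Col4a2 window 3, the Lamb1 window 2 and the Col4a1 window 1. Of the 36 windows found for 30 of the 43 members, 22 (61.1%) held a GC box, against 35.7% of all 32851 promoter windows of this length. The letters TATAAA were in none of the 36 windows on either strand and in 13.6% of all windows. The median GC content was 61.0% in the member windows and 52.7% in all windows. A match of letters is a description and not a binding site.

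No member differed between the groups past the adjusted threshold. Of the 43 members, 34 had a mean of at least 1 FPKM and were tested with limma on log2(FPKM + 1). None passed at a Benjamini-Hochberg adjusted p under 0.05 (lowest limma adjusted p = 0.298, for Lamb1), where 0.0876% of all 11412 genes tested passed. At an unadjusted p under 0.05, 3 members were higher (Lamb1, Agrn and Itgb7; 7.09% of all genes tested were) and 2 were lower (Itga1 and Lama3; 6.3% of all genes tested were). Limma-voom on the recovered fragments called 0 members after adjustment. It gave 6 of 34 members at an unadjusted p under 0.05, and 1484 of all 11410 genes it tested. The difference was positive in 19 members and negative in 15; its median on the log2 scale was 0.01, and -0.02 over all genes tested. In size, without sign, the median difference was 0.11 for the members and 0.11 for all genes. The groups did not overlap in 5 members higher in pregnancy (Lamb1, Agrn, Itgb4, Itgb8 and Itgb7; 9.9% of all genes) and in 2 lower (Itga1 and Itga7; 12.2% of all genes). These were 14.7% and 5.88% of the tested members.

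**Figure D1:**
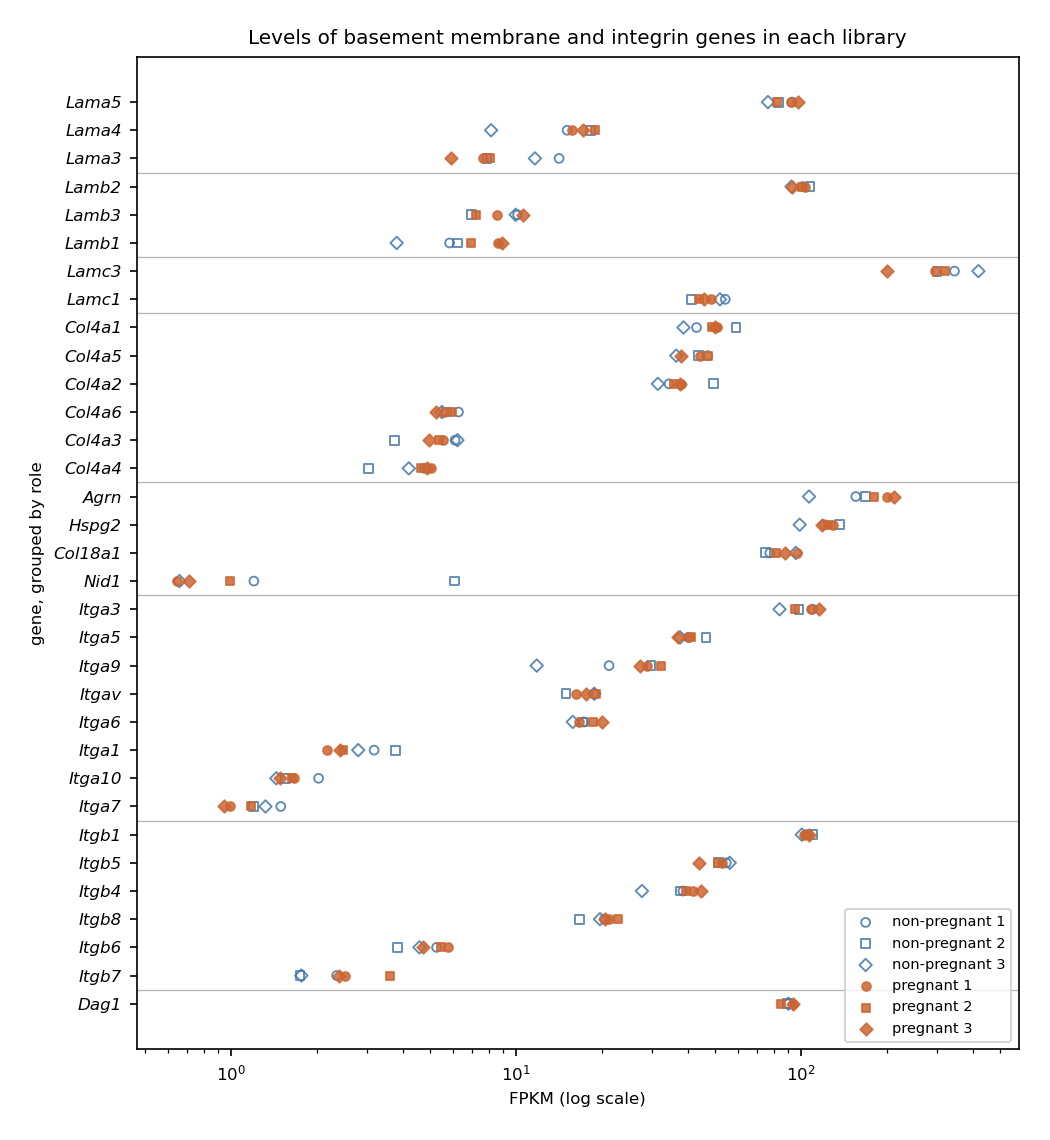
FPKM (log axis) of the tested genes described in the text, 1 row per gene and 1 point per library, with open blue symbols for the 3 non-pregnant and filled orange symbols for the 3 pregnant libraries and grey lines between roles. Lamc3 lies highest, between 200.5 and 419 FPKM, and Nid1 shows the widest gap, with non-pregnant library 2 at 6.07 FPKM.

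**Figure D2:**
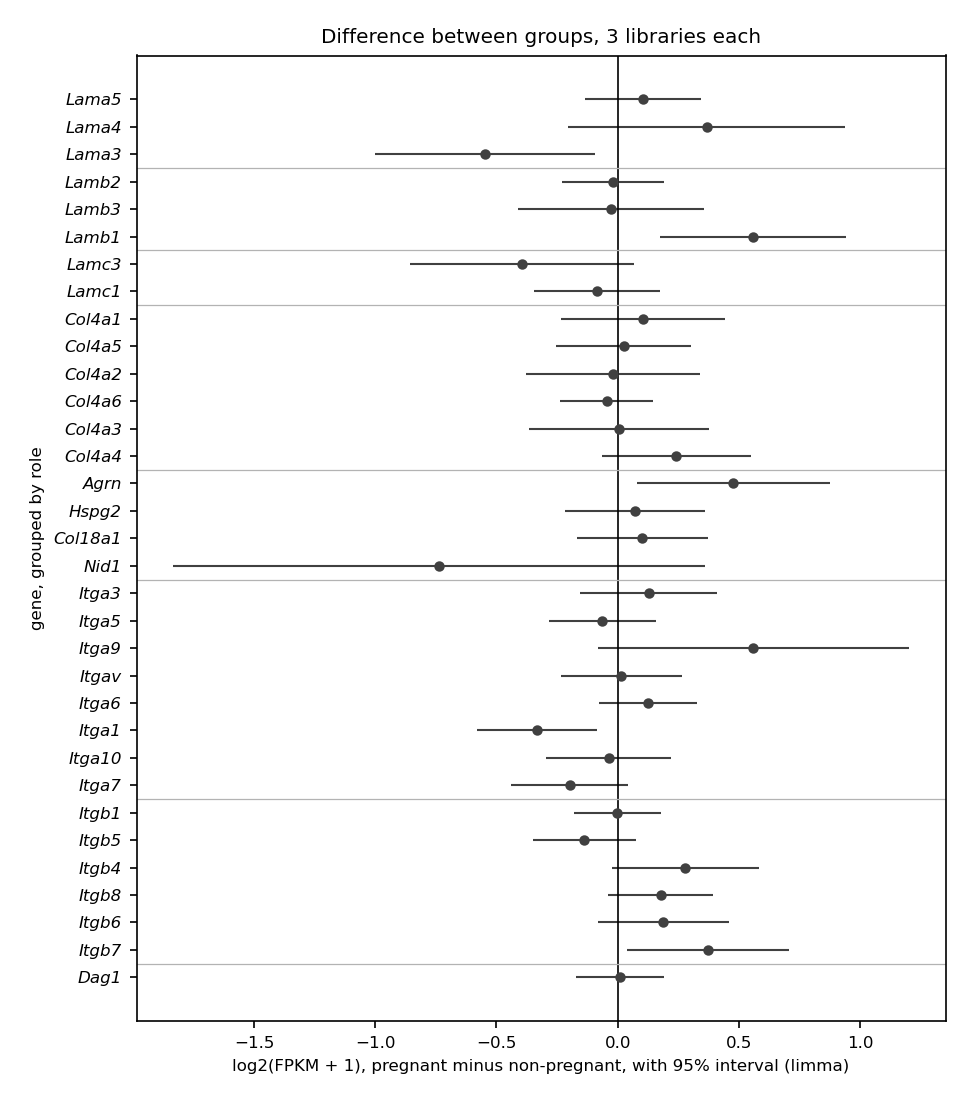
Difference in log2(FPKM + 1), pregnant minus non-pregnant (3 libraries each), with the 95% interval of limma before adjustment for the number of genes. The intervals of Lama3, Lamb1, Agrn, Itga1 and Itgb7 lie to 1 side of 0, and after adjustment none of them passed.

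Laminin alpha chains carry the domains that bind integrins and dystroglycan. Lama5 (chromosome 2, 180176373 to 180225859) was the most abundant of them, at 92.9, 83.5 and 76.5 FPKM in non-pregnant libraries 1 to 3 and 92.3, 82.3 and 97.2 FPKM in pregnant libraries 1 to 3. The groups overlapped, and the log2 difference was 0.10 with a 95% interval from -0.14 to 0.34. It made up 75.1% to 80.5% of the summed FPKM of the 5 alpha chains in a library. Lama4 (chromosome 10, 38965515 to 39110188), the chain best known from vessels, was next at 15.1, 18.2 and 8.17 FPKM and 15.8, 18.9 and 17.2 FPKM. Only non-pregnant library 3 lay below the rest for Lama4, and the log2 difference was 0.37 with it, 0.05 without it and 0.59 without non-pregnant library 2. The summed endothelial level was lowest in that library too, though 5 of the 9 markers were not, and their part in the Lama4 levels was not tested.

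Lama3, the alpha chain of laminin-332, which anchors epithelia through hemidesmosomes, lies on chromosome 18 from 12333819 to 12583013. It stood at 14.1, 7.90 and 11.6 FPKM without pregnancy against 7.66, 8.11 and 5.91 FPKM at dpc8. Non-pregnant library 2 lay within the pregnant range, so that the groups overlapped. The log2 difference was -0.55 ± 0.195 (SE; limma adjusted p = 0.327). Without non-pregnant library 2 it was -0.76 (limma adjusted p = 0.051), the lowest adjusted p that any member reached in any alternative. Lama1 and Lama2, the remaining alpha chains, had means of 0.124 and 0.0709 FPKM and were not tested.

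Among the beta chains Lamb2 (chromosome 9, 108479736 to 108490530) led, with 101, 107 and 92.5 FPKM without pregnancy against 103, 101 and 92.6 FPKM at dpc8. Its levels overlapped fully, with a log2 difference of -0.02 and a 95% interval from -0.23 to 0.19. Lamb3, the beta chain of laminin-332, stood at 10.1, 6.95 and 9.96 FPKM and 8.57, 7.24 and 10.6 FPKM, so its groups overlapped as well (log2 difference -0.03, 95% interval from -0.41 to 0.36).

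Lamb1, the beta-1 chain of many laminin trimers (chromosome 12, 31265234 to 31329644), had the lowest mean of the beta chains. It stood at 5.84, 6.22 and 3.81 FPKM without pregnancy against 8.65, 6.92 and 8.91 FPKM at dpc8. Every pregnant library lay above every non-pregnant one, by a ratio of group means of 1.54. The log2 difference was 0.56 ± 0.165 (SE; limma unadjusted p = 0.0101, adjusted p = 0.298). Leaving out each library in turn gave 0.38 to 0.67. The sum of the biliary markers, most of it Spp1, was higher at dpc8 too and lowest in non-pregnant library 3, where Lamb1 was lowest. The biliary markers Sox9 and Epcam were instead highest in that library among the non-pregnant ones. The part of biliary cell content in the Lamb1 difference was not tested.

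The gamma chain joins the laminin trimer to nidogen in its common form. Lamc3, the gamma-3 chain (chromosome 2, 31887291 to 31946539), was the most abundant of all 43 members and ranked 54 among the 21700 genes by mean FPKM. It stood at 345, 299 and 419 FPKM without pregnancy against 296, 320.3 and 200.5 FPKM at dpc8. Non-pregnant library 3 was highest and pregnant library 3 lowest, and the other 4 libraries lay together. The log2 difference was -0.40, with a 95% interval from -0.86 to 0.07 (limma adjusted p = 0.415). Without pregnant library 3 it was -0.19, and -0.53 without pregnant library 2. An antisense gene, Gm13441, overlaps 6.27% of the exon length of Lamc3, and whether reads were counted by strand is not given in the sources used here.

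Lamc1, the widespread gamma-1 chain (chromosome 1, 153218922 to 153332786), stood at 54.2, 41.1 and 51.9 FPKM without pregnancy against 48.3, 43.9 and 45.5 FPKM at dpc8. The groups overlapped, with a log2 difference of -0.08 (95% interval from -0.35 to 0.18). Lamc3 was 4.41 to 8.07 times as high as Lamc1 over the 6 libraries, in each of which Lama5, Lamb2 and Lamc3 led their classes.

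**Figure D3:**
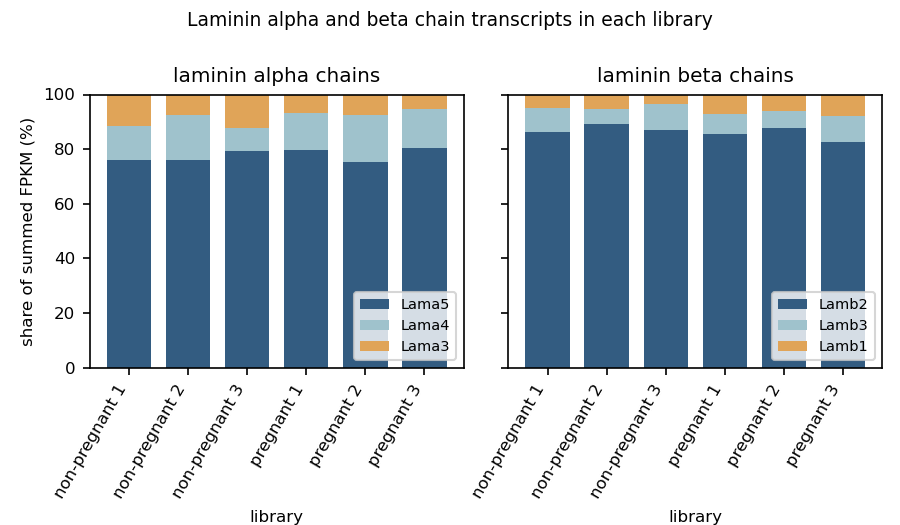
Share (%) of each laminin alpha and beta chain in the summed FPKM of its class, 1 bar per library; Lama1 and Lama2, each under 1% in all libraries, are not drawn. Lama5 and Lamb2 make up the largest part of the bars in all 6 libraries, with Lama5 between 75.1% and 80.5%.

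Collagen IV is encoded by genes that lie in head-to-head pairs, Col4a1 with Col4a2, Col4a3 with Col4a4 and Col4a5 with Col4a6. Col4a1 (chromosome 8, 11198423 to 11312826) stood at 42.9, 59.1 and 38.7 FPKM without pregnancy against 50.5, 48.5 and 49.9 FPKM at dpc8. The pregnant values lay inside the non-pregnant range, with a log2 difference of 0.10 (95% interval from -0.24 to 0.44). Non-pregnant library 2, the one with the highest endothelial sum, was highest for Col4a1 and Col4a2. Without it the Col4a1 difference was 0.28, and that of Col4a2 turned from -0.02 to 0.17. The part of endothelial RNA in the levels of Col4a1 and Col4a2 was not tested. Col4a5 (chromosome X, 141475385 to 141689234), whose loss causes Alport syndrome, an inherited kidney disease, stood at 46.9, 43.6 and 36.5 FPKM and 44.3, 46.9 and 37.8 FPKM. Its groups overlapped too, with a log2 difference of 0.03 (95% interval from -0.25 to 0.30). Col4a3, Col4a4 and Col4a6 lay between 3.03 and 6.27 FPKM over all libraries. None of the 6 chains passed or had an unadjusted p under 0.05.

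Within a library, the ratio of paired chains cancels what scales both alike. Ratios of 6 pairs were compared with exact permutation tests of the log2 ratios (two-sided; with 3 libraries against 3, 0.1 is the smallest p they can give). Col4a1 over Col4a2 was 1.25, 1.20 and 1.23 in non-pregnant and 1.33, 1.36 and 1.33 in pregnant libraries, so the groups did not overlap (exact permutation p = 0.1, adjusted over the 6 ratios 0.2). Col4a3 over Col4a4 was 1.28, 1.24 and 1.48 against 1.10, 1.15 and 1.01, lower in each pregnant library (exact permutation p = 0.1, adjusted 0.2). Col4a5 over Col4a6, whose annotated starts are 1343 bases apart, was 6.64 to 7.68 against 7.20 to 7.94, and the groups overlapped (exact permutation p = 0.5, adjusted 0.5). The differences in the first 2 ratios kept their direction without any 1 library, between 0.11 and 0.14 on the log2 scale for Col4a1 over Col4a2 and between -0.34 and -0.21 for Col4a3 over Col4a4. Overlapping annotation covers 5.65% of the exon length of Col4a3 and less than 1% of Col4a1 and Col4a2.

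Laminin chains were compared in the same way. Lamb1 over Lamb2 was 0.0578, 0.0579 and 0.0412 in non-pregnant and 0.0838, 0.0686 and 0.0962 in pregnant libraries, without overlap (exact permutation p = 0.1, adjusted 0.2). Lama3 over Lama5 was 0.152, 0.0946 and 0.152 against 0.0830, 0.0986 and 0.0608 (exact permutation p = 0.2, adjusted 0.3). Lamc3 over Lamc1 was 6.37, 7.29 and 8.07 against 6.12, 7.30 and 4.41 (exact permutation p = 0.3, adjusted 0.36). No ratio passed, and at this number of libraries none could.

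**Figure D4:**
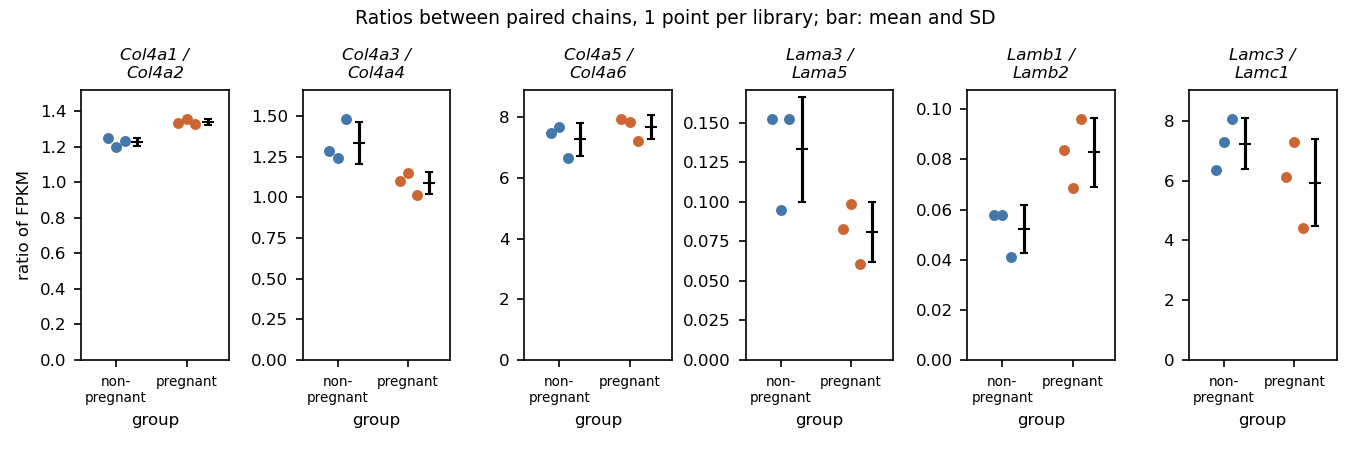
Ratio of the FPKM of paired chains in each library (points; axes start at 0) with the mean and SD of each group (bars, n = 3). The groups are apart for Col4a1 over Col4a2, Col4a3 over Col4a4 and Lamb1 over Lamb2, and overlap for the other 3 ratios.

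Of the linkers, agrin was the most abundant. Agrn (chromosome 4, 156165290 to 156197488) encodes a large heparan sulfate proteoglycan that binds laminin at one end and dystroglycan at the other. It stood at 156, 169 and 107 FPKM without pregnancy against 199, 181 and 211 FPKM at dpc8. All pregnant libraries lay above all non-pregnant ones, and non-pregnant library 3 lay lowest by a wide gap. The ratio of group means was 1.37 and the log2 difference 0.48 ± 0.171 (SE; limma unadjusted p = 0.0242, adjusted p = 0.327). Without non-pregnant library 3 the log2 difference was 0.28. That library was also lowest in the sum of the biliary markers, most of it Spp1. Sox9 and Epcam were instead highest there among the non-pregnant libraries. The part of biliary cell content in the Agrn difference was not tested.

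Perlecan, Hspg2 (chromosome 4, 137468769 to 137570630), stood at 121, 136 and 98.8 FPKM without pregnancy against 129, 124 and 118 FPKM at dpc8, with overlapping groups and a log2 difference of 0.07 (95% interval from -0.22 to 0.36). Col18a1, which carries the endostatin fragment, ranged from 74.9 to 96.5 FPKM over the 6 libraries. Nidogens were scarce in comparison, since Nid1 stood at 0.643 to 1.20 FPKM in 5 libraries and Nid2 at 0.331 to 0.618 FPKM in all 6. In non-pregnant library 2 Nid1 was at 6.07 FPKM, 8.54 times the median of the others. Endothelial markers stood at 6.11 to 14.3 times the median of the others in that library for 8 of the 9, and their part in the Nid1 level was not tested. The log2 difference of Nid1 was -0.74 with a 95% interval from -1.83 to 0.36, the widest of the tested members. With non-pregnant library 2 removed it was -0.11, and with non-pregnant library 3 removed it was -1.15.

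Integrin alpha subunits set which ligand is bound. Itga3 (chromosome 11, 95044474 to 95076801), whose pair with beta-1 binds laminins of epithelia, led with 110, 98.2 and 84.0 FPKM without pregnancy against 108, 95.1 and 115 FPKM at dpc8. Its groups overlapped (log2 difference 0.13, 95% interval from -0.16 to 0.41). Itga5 (chromosome 15, 103344286 to 103366763), the fibronectin receptor subunit, stood at 40.2, 46.4 and 37.6 FPKM and 40.4, 40.9 and 37.1 FPKM, again with overlap (log2 difference -0.06, 95% interval from -0.28 to 0.16). Itga6, the laminin-binding partner of beta-4, stood at 16.7 ± 0.805 and 18.4 ± 1.73 FPKM (SD, n = 3 each), and Itgav, which binds RGD motifs and latent TGF-beta with several beta subunits, at 17.5 ± 2.20 and 17.6 ± 1.37 FPKM.

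Itga9 (chromosome 9, 118606690 to 118901003), whose ligands include tenascin C and osteopontin, had a log2 difference as large as that of Lamb1 but a wider error. It stood at 21.2, 29.7 and 11.8 FPKM without pregnancy against 28.8, 32.2 and 27.3 FPKM at dpc8. The groups overlapped through non-pregnant library 2, and the log2 difference was 0.56 ± 0.277 (SE; limma adjusted p = 0.408). Removing non-pregnant library 2 gave 0.85, and removing non-pregnant library 3 gave 0.22. Its level was lowest in non-pregnant library 3, which was also the lowest for 15 of the 34 tested members (44.1%) and for 28.4% of all genes tested.

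Itga1 (chromosome 13, 114953096 to 115101964), the alpha-1 subunit that binds collagen IV, was one of the low tested members. It stood at 3.17, 3.76 and 2.79 FPKM without pregnancy against 2.18, 2.48 and 2.41 FPKM at dpc8, with no overlap. The ratio of group means was 0.726 and the log2 difference -0.33 ± 0.106 (SE; limma unadjusted p = 0.0146, adjusted p = 0.301). Non-pregnant library 2 was highest, at 1.52 times the median of the others, and without it the difference was -0.25. A gene model on the same strand, Gm49395, shares 3.68% of its exon length. Itga7, another laminin-binding subunit, was at 1.20 to 1.49 against 0.947 to 1.17 FPKM and did not pass (limma adjusted p = 0.421). Itga10, at 1.44 to 2.03 FPKM, shares 33.5% of its exon length with another gene model on the same strand, Gm42957, so its level is uncertain.

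Itgb1 (chromosome 8, 128685654 to 128733200), the partner of most alpha subunits, was nearly level over the libraries. It stood at 104, 109.8 and 101 FPKM without pregnancy against 102, 106 and 106 FPKM at dpc8. The log2 difference was -0.001 with a 95% interval from -0.18 to 0.18. Itgb5 (chromosome 16, 33829665 to 33949338), which pairs with alpha-v to bind vitronectin, stood at 54.6, 51.4 and 56.1 FPKM and 52.6, 51.2 and 43.8 FPKM, with overlapping groups (log2 difference -0.14, 95% interval from -0.35 to 0.08).

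Itgb4, the hemidesmosome subunit that pairs with alpha-6, stood at 38.5, 37.7 and 27.6 FPKM without pregnancy against 41.6, 39.4 and 44.5 FPKM at dpc8. The groups did not overlap, but the nearest libraries were close (38.5 against 39.4 FPKM), and the difference did not pass (log2 difference 0.28 ± 0.131, SE; limma adjusted p = 0.396). Without non-pregnant library 3 it was 0.13. Itgb8, which with alpha-v activates latent TGF-beta, was at 16.7 to 20.4 against 20.5 to 22.9 FPKM (limma adjusted p = 0.421). Itgb6, the alpha-v partner known from activated ductal epithelium, was at 3.83 to 5.26 against 4.69 to 5.77 FPKM, with overlap.

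Itgb7 (chromosome 15, 102215995 to 102231944), a subunit best known from lymphocytes that home to the gut, stood at 2.34, 1.74 and 1.76 FPKM without pregnancy against 2.51, 3.61 and 2.40 FPKM at dpc8. All pregnant values lay above all non-pregnant ones, the nearest being 2.40 and 2.34 FPKM. The log2 difference was 0.37 ± 0.144 (SE; limma unadjusted p = 0.0338, adjusted p = 0.351). Without pregnant library 2 it was 0.23 (limma unadjusted p = 0.123). Its usual partners were far lower, with Itga4 at 0 to 0.183 FPKM and Itgae at 0.0949 to 0.167 FPKM. The 7 lymphocyte markers summed to 1.56 to 2.14 FPKM in non-pregnant and 2.85 to 3.25 FPKM in pregnant libraries, of which Cd79a alone gave 1.45 to 2.60 FPKM; Cd3d was at 0 in 4 of the 6 libraries. Their part in the Itgb7 level was not tested.

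Dystroglycan, Dag1 (chromosome 9, 108204634 to 108263958), was among the more abundant members. It stood at 89.8, 89.5 and 90.3 FPKM without pregnancy against 93.8, 84.6 and 93.5 FPKM at dpc8. The pregnant libraries enclosed the non-pregnant ones, and the log2 difference was 0.01 with a 95% interval from -0.17 to 0.19. For 23 of the 34 tested members the 95% interval lay within 0.5 of 0 on the log2 scale.

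The 9 members below 1 FPKM on average were kept out of the test. The leukocyte subunit Itgb2 stood at 0.149, 0.119 and 0.00930 FPKM without pregnancy against 1.35, 0.912 and 0.505 FPKM at dpc8, from 25 and 235 fragments in all. Pooled over libraries, the ratio was 10.7 (95% exact Clopper-Pearson interval from 7.10 to 16.9, for counting error only). Itga4 had 3, 5 and 0 fragments without pregnancy against 68, 42 and 32 at dpc8, which gave 20.3 as the pooled ratio (counting interval from 10.02 to 47.9). With no filter on low values, neither passed (limma adjusted p = 0.217 for Itgb2 and 0.234 for Itga4). Both were highest in pregnant library 1 and lowest among the pregnant libraries in library 3, as was the Kupffer cell sum, and Itgal, a partner of Itgb2, stood at 0.0432 to 0.166 against 0.517 to 1.85 FPKM. The part of Kupffer cell RNA in these levels was not tested.

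Itgb3 and Itga8 were highest in non-pregnant library 2, like the endothelial sum. The 9 stellate cell and fibroblast markers also summed highest there, at 16.0 FPKM against 9.50 to 13.7 FPKM elsewhere. Of these markers, all but Reln were highest in that library. The part of endothelial, stellate cell or fibroblast RNA in the Itgb3 and Itga8 levels was not tested. Itgb3, the vascular and platelet subunit, stood at 0.361, 1.37 and 0.231 FPKM without pregnancy against 0.191, 0.219 and 0.141 FPKM at dpc8, and its groups did not overlap. Itga8, the nephronectin receptor of stromal cells, stood at 0.403, 1.67 and 0.308 FPKM and 0.117, 0.343 and 0.198 FPKM. In that library 4 of the 43 members (Nid1, Itgb3, Itga8 and Itga11) exceeded 2 times the median of the others. Of the tested members only Nid1 did, 1 of 34 or 2.94%, against 1.27% of all genes tested. Lama1 had 55 fragments in the non-pregnant and 145 in the pregnant libraries in all, and Lama2 145 and 65. Their groups did not overlap, and with no filter their limma adjusted p were 0.334 and 0.325. Itga2, Nid2 and Itga11 overlapped between groups.

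**Figure D5:**
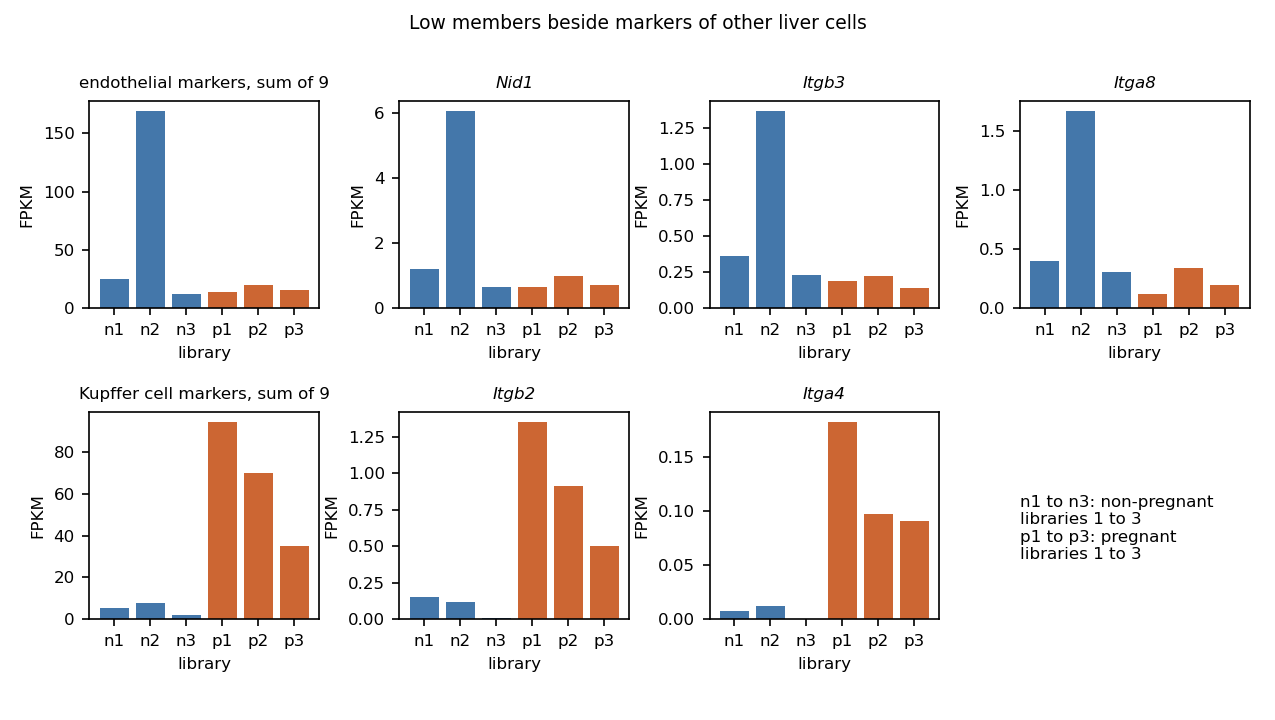
FPKM per library (bars; blue non-pregnant, orange pregnant) of Nid1 and 4 members averaging under 1 FPKM beside the summed FPKM of 9 endothelial and 9 Kupffer cell markers. Nid1, Itgb3 and Itga8 peak in non-pregnant library 2 with the endothelial sum of 169 FPKM, and Itgb2 and Itga4 are higher in the 3 pregnant libraries, as is the Kupffer cell sum.

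The partners of these genes inside and outside the cell were taken as 8 lists of neighbouring functions. None of their 80 tested entries passed the adjusted threshold in either direction. Over all genes tested, 44.8% had a positive difference, 7.09% were higher and 6.3% lower at an unadjusted p under 0.05. The 7 biliary markers were positive in 7 of 7, with a median of 0.33 and 3 higher at an unadjusted p under 0.05, and the part of biliary cell content in the lists was not tested. Among 19 tested integrin adaptors of focal adhesions, 14 had a positive log2 difference (median 0.08, and -0.02 over all genes tested), 1 was higher and 2 were lower at an unadjusted p under 0.05. Parvb, an actin-binding partner of integrin-linked kinase, went from 3.60 ± 0.810 to 1.89 ± 0.262 FPKM (SD, n = 3 each; limma adjusted p = 0.252), and the cytoskeletal adaptor Tns1 from 380 ± 21.7 to 292 ± 33.9 FPKM (limma adjusted p = 0.301). Zyx, which encodes the adhesion protein zyxin, went the other way, from 19.9 ± 1.95 to 25.7 ± 2.32 FPKM (limma adjusted p = 0.295).

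Of the 6 tested hemidesmosome and tetraspanin partners 5 lay above 0 (median 0.15), with 1 higher and 1 lower at an unadjusted p under 0.05. The plakin Plec, which ties integrin beta-4 to keratin, was at 73.4, 63.5 and 45.8 FPKM without pregnancy against 79.5, 77.4 and 83.2 FPKM at dpc8, and the plakin Dst at 4.21 ± 0.285 and 3.15 ± 0.242 FPKM (limma adjusted p of 0.348 and 0.295). The tetraspanin Cd81 stood at 144 ± 15.7 and 167 ± 6.90 FPKM. Other receptors for laminin, collagen and proteoglycan-bound matrix had 7 of 8 above 0 (median 0.18), with Gpc4 at 31.3 ± 0.831 and 35.2 ± 1.29 FPKM, the Lutheran laminin receptor Bcam at 129 ± 7.43 and 154 ± 19.3 FPKM and the collagen receptor Ddr1 at 94.0 ± 21.0 and 119 ± 8.21 FPKM. Genes that build the sugar chain of dystroglycan or its complex had 7 of 12 above 0 (median 0.02) and 0 at an unadjusted p under 0.05, with Sgce, a sarcoglycan of the complex, at 4.08, 4.68 and 3.98 FPKM without pregnancy against 4.97, 4.76 and 4.67 FPKM at dpc8 (limma adjusted p = 0.438).

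The 12 tested genes of collagen IV folding, export and crosslinking had 7 above 0 (median 0.02), with 1 higher and 1 lower at an unadjusted p under 0.05. Mia3, which helps load collagen into transport vesicles, stood at 63.8, 47.4 and 66.1 FPKM without pregnancy against 35.5, 41.5 and 33.9 FPKM at dpc8, without overlap (log2 difference -0.65 ± 0.140, SE; limma adjusted p = 0.243). The collagen chaperone Serpinh1 was at 50.1 ± 10.7 and 64.6 ± 0.939 FPKM and the lysyl hydroxylase Plod3 at 21.9 ± 2.81 and 25.3 ± 1.48 FPKM (SD, n = 3 each; limma adjusted p of 0.344 and 0.419).

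Among 13 tested other components of the basement membrane zone, 8 lay above 0 (median 0.09), with 3 higher and 1 lower at an unadjusted p under 0.05. Fras1 and Frem2, whose products form a complex beneath epithelial basement membranes, stood at 10.9 ± 1.74 and 15.2 ± 0.761 FPKM and at 6.29 ± 0.747 and 8.38 ± 0.595 FPKM (SD, n = 3 each). The matrix glycoprotein Fbln2 was at 10.3 ± 1.70 and 16.4 ± 2.98 FPKM. Their limma adjusted p lay between 0.290 and 0.295. Of 9 tested integrin ligands outside the basement membrane 7 lay above 0 (median 0.27), with 3 higher at an unadjusted p under 0.05. Thbs1 (thrombospondin-1) stood at 21.3 ± 4.02 and 33.2 ± 5.63 FPKM, Vtn (vitronectin) at 46.6 ± 12.9 and 85.6 ± 21.3 FPKM and Ccn1 at 665 ± 8.15 and 871 ± 111 FPKM (limma adjusted p from 0.290 to 0.312). Vtn is also made in quantity by hepatocytes, whose 7 markers summed to 2395 to 2968 FPKM without pregnancy and 2393 to 2715 FPKM at dpc8, mostly from Alb. Among these markers Serpina1c went from 31.5 ± 11.5 to 52.3 ± 8.11 FPKM (SD, n = 3 each; limma adjusted p = 0.301), and the other 6 had adjusted p from 0.502 to 0.835. Of the 7, only 2 had a positive log2 difference (Serpina1c and Fgb), and the median was -0.17. The part of hepatocyte RNA in the Vtn level was not tested. Of the integrin alpha subunits outside the symbol rule, Itga2b alone was tested, at 1.36 ± 0.0774 and 1.28 ± 0.186 FPKM.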

How the data were processed

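The table holds FPKM values that the authors deposited, 1 column per library. The submitters' processing notes list build mm10 with STAR 2.7.9a, cutadapt 3.4, DESeq2 1.30.1 and HTSeq 0.13.5, without their roles. Median-of-ratios size factors of the deposited FPKM differed from 1 by no more than 5.3e-05, so that rescaling by them changed nothing. The deposited values were thus already on that scale, and this alternative could not differ from the main fit. FPKM times GENCODE vM21 exon length gave whole fragments (tolerance 0.01) for 98.5% of values above 0, and for 40 of the 43 members in all libraries.

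The 11412 genes averaging 1 FPKM or more were tested two-sided as log2(FPKM + 1), pseudocount 1, with limma 3.58.1 (trended empirical Bayes; R 4.3.3), with Benjamini-Hochberg adjustment and a threshold of 0.05. This pseudocount understates changes of low genes. Ratios used exact permutation tests (scipy 1.17.1, Python 3.11.15). On simulated data for 11410 genes the fit found 100% of those given a 2-fold change, while 4.31% of calls fell on genes left unchanged. The simulation drew each gene independently, with the same dispersion for all genes and no differences in cell content. It therefore does not give the share of such changes that could be found in these libraries. Among them Clec4f, with group means of 0.962 and 12.7 FPKM, did not pass (limma adjusted p = 0.0854). Groups and replicate numbers come from sample titles. Alternatives were other pseudocounts, filters, scalings, robust empirical Bayes, limma-voom, a replicate block and leaving out each library.

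The members and lists were chosen with earlier results of these data known. The text gives every library's value for members at an unadjusted p under 0.05 and the 2 most abundant of each role, and the 3 genes of smallest p in each list, except a few genes that are not reported here; Col4a2, Itga9, Itgb4, the ratios and the members below the filter were added with values already seen.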

Additional observations from a re-analysis of the deposited data

How the results depend on the processing

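Across 17 alternatives no member passed the adjusted threshold. The members at an unadjusted p under 0.05 numbered 9 of 43 with no filter on low values and 3 of 27 with a mean of at least 5 FPKM. Leaving out each library gave between 3 and 10 of 34. The highest value came with non-pregnant library 2 removed and the lowest with pregnant library 1 or pregnant library 3 removed. Of all genes, 10 passed, against 0 with no filter, 4 with a mean of at least 5 FPKM, 5 with robust empirical Bayes, 1 with limma-voom and between 0 and 133 leaving out each library. Removing non-pregnant library 2 gave 133, pregnant library 3 gave 12, and each of the other 4 gave 0. By limma at an unadjusted p under 0.05, these 4 gave 857 to 1419 of all 11412 genes tested. Removing non-pregnant library 2 gave 2744 of them and removing pregnant library 3 gave 727. No filter gave 2258 of 17404 genes, and a mean of at least 5 FPKM gave 1083 of 7767.

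Of 19 named members, which do not include Col4a2, 11 kept their direction in every alternative. Itgb1 turned to 0.0081 when scaled to recovered fragments and 0.0083 with limma-voom, and Dag1 to -0.011 with quantile normalisation and -0.0043 at an equal sum of FPKM. The scalings to fragments and to an equal sum were added after the data were seen. Leaving out each library, the log2 differences ranged from -0.075 to 0.031 for Lamb2, -0.19 to 0.09 for Lamb3, -0.021 to 0.28 for Col4a1, -0.076 to 0.11 for Col4a5, -0.053 to 0.18 for Hspg2, -0.13 to 0.019 for Itga5, -0.031 to 0.032 for Itgb1 and -0.015 to 0.059 for Dag1. The cause of these turns was not tested.

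No pairing by replicate number was seen in the deviations from the group means. Same-numbered libraries deviated together with correlations of 0.0679, 0.0186 and -0.138, and none correlated best with its own number. Whether same-numbered libraries were prepared together was not tested. The replicate numbers are those of the titles. The description of non-pregnant library 3 carries the number 4, by which only the first 2 numbers would be shared. With the replicate block 13 genes and 0 members passed. At an unadjusted p under 0.05 it gave 6 of 34 members and 1230 of all 11412 genes tested. At 3 libraries a group the median standard error of a member's log2 difference was 0.12.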
